A study of Mus musculus with 12 samples.

Results

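The genes described here are 34 members of cholesterol homeostasis measured by RNAseq in oligodendrocyte precursor cells (OPCs), the progenitors that generate myelin-forming oligodendrocytes. They comprise 18 enzymes of cholesterol synthesis, 5 genes that control the SREBP transcription factors, and 11 genes grouped as uptake and efflux. These 11 cover sterol transport, storage and efflux, with the regulators *Nr1h2*, *Nr1h3* and *Mylip* and the hydroxylase *Ch25h* among them. No lipoprotein receptor is in the group. The members were chosen by their place in the pathway, at a time when the lower FPKM (fragments per kilobase, scaled to the size of the library) of sterol synthesis genes in unstimulated TNFR2-/- libraries was already known. All 34 were found among the 45563 gene symbols used, and all 34 were among the 18081 genes that passed a minimum of 0.1 FPKM on average and were tested.

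The OPCs came from cortices of C57BL/6 pups aged 2 to 5 days by the labels, either WT or TNFR2-/-, a germline deletion that every cell type of the animal carries. Cells were purified with anti-PDGFRα beads and grown for 3 days *in vitro* with PDGF-AA and FGF2, which all groups share. They then received vehicle (non-stimulated, NS) or TNF, IFNγ and IL1β, each at 25 ng/mL, for 3 h (stimulated, St). Each genotype had 3 NS and 3 St libraries, 12 in all. NS and St libraries of a genotype with the same number in the labels were similar beyond their groups and are called a culture, which gives 6 cultures (WT 2, 3 and 4, and TNFR2-/- 2, 4 and 5). How many pups went into a culture is not given in the sources used here, so p-values measure the spread between these libraries.

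Cholesterol is made from acetyl-CoA through mevalonate, squalene and lanosterol, and glia of the developing brain make most of their own because lipoproteins of the blood do not cross the blood–brain barrier. When the membranes of the endoplasmic reticulum are poor in sterol, SCAP escorts SREBP2 to the Golgi, where it is cleaved, and the released factor activates the genes of synthesis and uptake. INSIG proteins hold SCAP back when sterol is plentiful. Oxysterols and excess cholesterol activate the liver X receptors (LXR), which raise the transporters ABCA1 and ABCG1, the lipid carrier apolipoprotein E, SREBP1 and MYLIP. Oligodendrocytes use large amounts of cholesterol to build myelin.

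Library totals ranged from 26886878 to 30335265 read pairs. The reads of *Tnfrsf1b*, the gene of TNFR2, went against the labels: they numbered 15, 12 and 24 in WT NS libraries and 322, 346 and 213 in the libraries labeled TNFR2-/- NS, and 145, 61 and 105 in WT St and 282, 356 and 290 in those labeled TNFR2-/- St. Which exons these reads cover was not tested, so every direction between genotypes rests on the labels, and TNFR2-/- stands for libraries labeled TNFR2-/- throughout. Summed OPC markers (*Pdgfra*, *Cspg4*, *Sox10*, *Olig1*, *Olig2*) gave 2560 to 4110 RPM (reads of a gene or list scaled by the total of their library). The 8 microglial markers gave 0.632 to 1.86 RPM, and *Aif1*, *C1qa*, *C1qb* and *Cx3cr1* had at most 2 reads in the 3 libraries of a group. Both libraries of TNFR2-/- culture 5 stood apart in the 6 astrocyte markers, with 2520 (NS) and 2500 (St) RPM against 790 to 1350 in the other 10 libraries.

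Promoters of 4 members that the results turn on and of 1 efflux gene are shown as examples. They are RefSeq windows of GRCm38.p6, from 250 bases before to 50 after the annotated start, and were found for 28 of the 34 members. *Fdps*, *Fdft1*, *Sqle*, *Stard4*, *Npc1* and *Abcg1* had none. Capitals mark, on either strand, CCAAT (the box bound by NF-Y, a partner of SREBP) and TCACNCCAC (a sterol regulatory element, the letters that SREBP binds). The *Hmgcs1* window (chr13:119690101-119690400, + strand) holds 1 sterol element and 4 CCAAT boxes. That of *Msmo1* (chr8:64733529-64733828, − strand) holds 3 CCAAT boxes, that of *Cyp51* (chr5:4104648-4104947, − strand) 1, and that of *Hsd17b7* (chr1:169969156-169969455, − strand) 3, whereas that of *Abca1* (chr4:53159846-53160145, − strand) holds neither motif.
Hmgcs1: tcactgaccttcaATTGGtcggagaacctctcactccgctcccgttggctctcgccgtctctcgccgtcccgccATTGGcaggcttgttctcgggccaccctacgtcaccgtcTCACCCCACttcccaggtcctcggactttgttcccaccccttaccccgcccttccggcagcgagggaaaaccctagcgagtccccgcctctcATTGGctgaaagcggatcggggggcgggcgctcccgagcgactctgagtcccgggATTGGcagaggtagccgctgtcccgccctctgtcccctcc
Msmo1: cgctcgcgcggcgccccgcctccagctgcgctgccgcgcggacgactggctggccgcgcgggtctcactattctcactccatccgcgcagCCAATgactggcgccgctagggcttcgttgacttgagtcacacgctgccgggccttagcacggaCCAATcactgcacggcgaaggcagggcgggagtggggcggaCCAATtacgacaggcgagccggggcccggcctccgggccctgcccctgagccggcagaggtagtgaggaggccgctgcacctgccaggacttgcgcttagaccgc
Cyp51: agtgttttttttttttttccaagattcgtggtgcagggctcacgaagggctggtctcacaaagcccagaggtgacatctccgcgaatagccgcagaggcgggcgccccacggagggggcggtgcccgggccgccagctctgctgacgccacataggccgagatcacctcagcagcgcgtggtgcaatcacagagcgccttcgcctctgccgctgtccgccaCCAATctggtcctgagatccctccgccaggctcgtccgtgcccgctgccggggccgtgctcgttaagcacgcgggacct
Hsd17b7: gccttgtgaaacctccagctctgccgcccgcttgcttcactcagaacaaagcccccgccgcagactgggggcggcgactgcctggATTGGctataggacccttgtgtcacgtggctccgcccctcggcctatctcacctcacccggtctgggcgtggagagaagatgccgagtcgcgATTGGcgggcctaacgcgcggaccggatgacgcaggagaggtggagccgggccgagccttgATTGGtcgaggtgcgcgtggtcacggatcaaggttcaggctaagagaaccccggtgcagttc
Abca1: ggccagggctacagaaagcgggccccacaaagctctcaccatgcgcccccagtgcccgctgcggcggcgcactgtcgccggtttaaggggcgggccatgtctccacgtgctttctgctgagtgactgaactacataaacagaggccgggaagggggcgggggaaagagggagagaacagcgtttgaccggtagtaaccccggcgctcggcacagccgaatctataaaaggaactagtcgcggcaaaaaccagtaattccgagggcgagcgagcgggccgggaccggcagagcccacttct

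CCAAT was present in the windows of 14 of the 15 synthesis enzymes that had one (93.3%, *Acat2* being the exception), in 4 of 5 SREBP control genes (80.0%) and in 3 of 8 uptake and efflux genes (37.5%), against 41.1% of all 27025 genes with a window. The sterol element was found in *Hmgcs1* alone among the members, and in 1.44% of all genes. These matches describe letters in windows of 300 bases, and other stretches were not searched. Whether the matches bear on the levels of the genes was not tested.

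Levels were compared between genes as RPM per kb of merged exons, since the bases by which the deposited FPKM had been divided do not follow exon length. In WT NS OPCs *Hmgcs1*, which makes HMG-CoA at the entry of the mevalonate pathway, had the highest level (574), followed by *Cyp51* (262), *Apoe* (180), *Insig1* (172), *Msmo1* (141) and *Sqle* (125). *Abca1* stood at 15.0 and *Abcg1* at 1.63. The 2 LXR genes differed widely, with 12.7 for *Nr1h2* (LXRβ) and 0.384 for *Nr1h3* (LXRα). *Ch25h* was at 0.408. Counts of *Acat2*, *Idi1*, *Fdps* and *Fdft1* are uncertain, because 28.9%, 21.9%, 21.4% and 18.3% of their 100-base sequences also occur in other genes, of which *Acat3* shares most with *Acat2*, while *Sqle*, *Msmo1*, *Sc5d* and *Hsd17b7* shared none.

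The synthesis enzymes were lower in TNFR2-/- than in WT OPCs in both conditions. Summed over the 18 genes, WT NS libraries had 7250, 8610 and 7980 RPM (cultures 2, 3 and 4) and TNFR2-/- NS libraries 5750, 6610 and 5300 (cultures 2, 4 and 5). After stimulation the sums were 6750, 7640 and 6890 in WT and 5020, 5540 and 4640 in TNFR2-/- libraries. No TNFR2-/- library reached the lowest WT library of its condition. This order is a description, since the NS difference was known when the members were chosen and the St libraries share its cultures. The sum of the 11 uptake and efflux genes was higher in TNFR2-/- NS libraries, but *Apoe* alone took 385 RPM of it on average in WT NS and 834 in TNFR2-/- NS. The mean log2 level over these genes, which weighs them equally, overlapped between genotypes in NS (5.33 to 5.45 in WT and 5.33 to 5.65 in TNFR2-/-) and in St (5.71 to 5.72 and 5.68 to 5.95). The higher St means hold the rise of *Ch25h* (log2 fold change 4.21 in WT and 4.76 in TNFR2-/-). Of the 11 genes, 9 were lower in WT St than in WT NS, and 8 in TNFR2-/- St than in TNFR2-/- NS. Of all 18081 genes, 11076 and 11989 were lower in these comparisons. In bulk RNA, fewer cells of a type and less RNA per cell cannot be told apart.

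**Figure D1:**
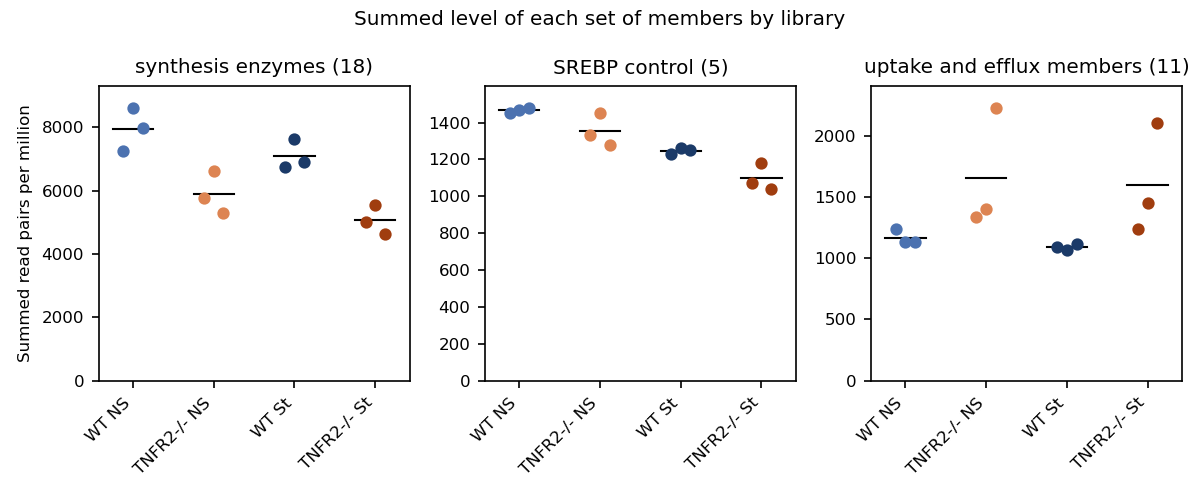
Summed RPM (vertical axes, from 0) of the 18 synthesis enzymes, 5 SREBP control genes and 11 uptake and efflux genes in each library, with groups on the horizontal axis, points for libraries and lines for group means. Synthesis sums of TNFR2-/- libraries lie below those of WT libraries in NS (5300 to 6610 against 7250 to 8610) and St (4640 to 5540 against 6750 to 7640), and uptake and efflux sums, in which *Apoe* weighs most, lie at 1340 to 2230 against 1130 to 1240 in NS. The lower synthesis genes in NS were known when the members were chosen.

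Between unstimulated genotypes the enzymes are described without a test, since this difference was known when the members were chosen. Of the 18, 16 were lower in TNFR2-/- NS, with a median log2 fold change of −0.37 against 0.04 over all genes tested. *Msmo1*, which removes methyl groups from lanosterol derivatives, had 729, 941 and 911 FPKM in WT NS and 536, 640 and 417 in TNFR2-/- NS. On the scale of log2(FPKM + 0.5), used for all fold changes, this was a difference of −0.71 ± 0.17 SE, and every TNFR2-/- library was below every WT library. *Cyp51*, the lanosterol demethylase, had 109, 131 and 122 FPKM in WT NS and 78.2, 93.6 and 68.4 in TNFR2-/- NS (−0.60 ± 0.13 SE). *Idi1*, which isomerizes isopentenyl diphosphate, had 164, 202 and 183 FPKM against 123, 136 and 110 (−0.57 ± 0.12 SE).

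*Sc5d*, a late sterol desaturase, had 2100, 2710 and 2440 FPKM in WT NS and 1670, 1790 and 1520 in TNFR2-/- NS (−0.54 ± 0.11 SE). *Sqle*, the squalene epoxidase that is a slow step of the pathway, had 406, 516 and 468 FPKM against 329, 380 and 285 (−0.48 ± 0.13 SE). *Dhcr7*, which makes cholesterol in the last reduction, had 937, 1110 and 1030 FPKM against 723, 916 and 715 (−0.39 ± 0.11 SE). In these genes the highest TNFR2-/- library was below the lowest WT library. *Hmgcs1* had 1490, 1700 and 1560 FPKM in WT NS and 1220, 1380 and 1130 in TNFR2-/- NS, again without overlap (−0.35 ± 0.09 SE).

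The exceptions were *Mvk*, mevalonate kinase, and *Tm7sf2*, a sterol reductase. *Mvk* had 142, 143 and 136 FPKM in WT NS and 135, 165 and 185 in TNFR2-/- NS, with groups that overlapped (0.19 ± 0.10 SE). *Tm7sf2* went from 133 ± 6.40 FPKM (SD, n = 3) in the WT to 161 ± 19.3 in the TNFR2-/- libraries (0.27 ± 0.10 SE). *Hsd17b7*, a ketosterol reductase, had 27.3, 34 and 32.5 FPKM in WT NS and 24.8, 23.2 and 21.6 in TNFR2-/- NS (−0.42 ± 0.12 SE), below every WT library.

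By the thresholds used for all genes (adjusted p up to 0.05, a change of 1.5-fold or more and 1 FPKM or more on average), 2 enzymes and *Stard4* were called lower and 0 members higher, where 1.28% of all genes tested were called lower and 1.62% higher. By adjusted p alone, 9 enzymes and 1 uptake and efflux gene were lower and 0 members higher (4.75% and 6.11% of all genes). Groups of libraries did not overlap for 18 members that were lower and 4 that were higher (14.3% and 19.9% of all genes). Because this contrast entered the choice of the members, nothing is read from these counts.

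**Figure D2:**
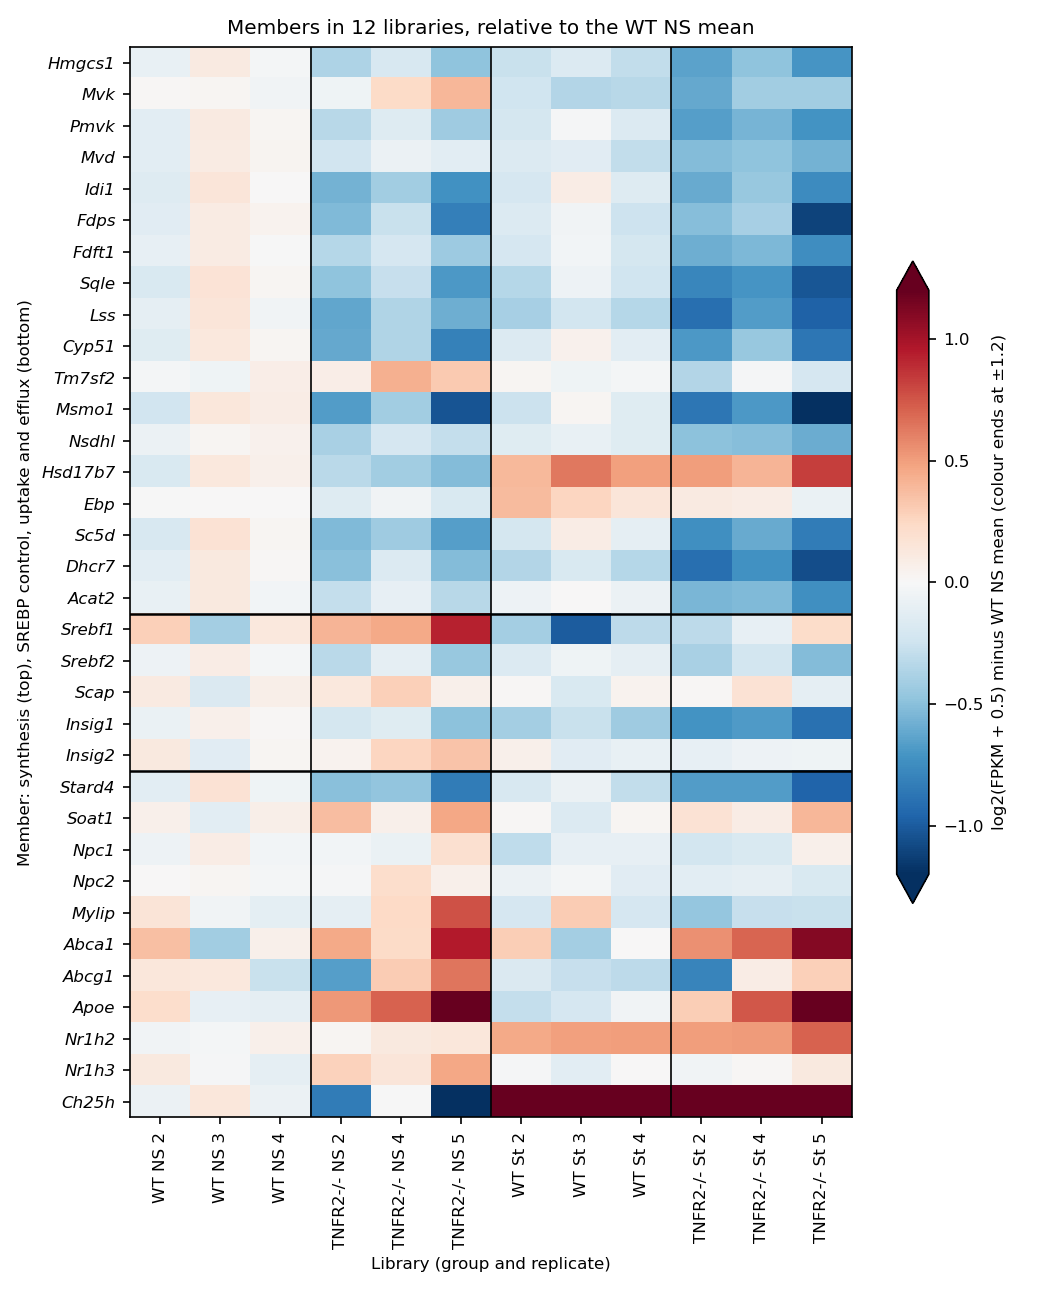
Level of the 34 members (rows) in 12 libraries (columns, by group and culture number) as log2(FPKM + 0.5) minus the mean of the WT NS libraries, in blue where lower and in red where higher, with colors ending at ±1.2. Most synthesis rows are blue in TNFR2-/- columns, *Abca1* and *Apoe* rows are red there, and *Ch25h*, *Hsd17b7* and *Nr1h2* rows are red in St columns of both genotypes.

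After stimulation, 17 of 18 enzymes were lower in TNFR2-/- than in WT OPCs, and their median log2 fold change was −0.52 (−0.003 over all genes). *Msmo1* had 717, 870 and 771 FPKM in WT St and 470, 531 and 372 in TNFR2-/- St, which is −0.79 ± 0.17 SE on the log2 scale (adjusted p = 0.0348 by limma, after Benjamini and Hochberg). *Sc5d* had 2080, 2550 and 2230 FPKM in WT St and 1440, 1580 and 1340 in TNFR2-/- St (−0.65 ± 0.11 SE, adjusted p = 0.0178). *Sqle* had 364, 443 and 390 FPKM against 267, 282 and 226 (−0.63 ± 0.13 SE, adjusted p = 0.0293). Each of the 3 genes was lower in every TNFR2-/- library than in any WT library.

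*Dhcr7* had 800, 901 and 806 FPKM in WT St and 547, 619 and 490 in TNFR2-/- St (−0.60 ± 0.11 SE, adjusted p = 0.023). *Cyp51* had 107, 125 and 110 FPKM in WT St and 74.4, 87.5 and 65.7 in TNFR2-/- St (−0.59 ± 0.13 SE, adjusted p = 0.0364). With *Msmo1*, *Sc5d* and *Sqle* these made 5 enzymes called lower. *Idi1* and *Hmgcs1* passed the adjusted p but not the fold change threshold. *Idi1* had 159, 194 and 164 FPKM in WT St and 120, 133 and 108 in TNFR2-/- St (−0.52 ± 0.12 SE, adjusted p = 0.0364). *Hmgcs1* had 1310, 1410 and 1290 FPKM against 1010, 1130 and 966 (−0.37 ± 0.09 SE, adjusted p = 0.0408).

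The 5 called enzymes were the only members called in either direction between stimulated genotypes, where 0.614% of all genes were called lower and 1.18% higher. By adjusted p alone, 13 enzymes, *Insig1* and *Stard4* were lower and 0 members higher (2.75% and 2.70% of all genes). Unadjusted, 3 were higher at p under 0.05 (*Apoe*, *Abca1* and *Soat1*), and voom called 0 of the uptake and efflux genes. Of all 18081 genes, 4820 had an unadjusted p under 0.05 in either direction, and voom called 282 higher and 154 lower. Groups did not overlap for 20 members that were lower, 16 of them enzymes, and for 4 that were higher (17.3% and 15.4% of all genes). The lowest adjusted p was that of *Acat2*, the cytosolic thiolase that makes acetoacetyl-CoA (−0.56 ± 0.08 SE, adjusted p = 0.00994). *Hsd17b7* was the enzyme that was not lower, with 41.0, 48.4 and 44.0 FPKM in WT St and 44.3, 41.5 and 55.8 in TNFR2-/- St (0.08 ± 0.12 SE, adjusted p = 0.716). *Mvk* had 119, 110 and 111 FPKM against 91.3, 105 and 105 and did not pass (−0.17 ± 0.10 SE, adjusted p = 0.298), nor did *Fdps*, *Tm7sf2* and *Ebp* (adjusted p = 0.117, 0.288 and 0.166).

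Stimulated and unstimulated libraries came from the same cultures, so the difference after stimulation is not independent of the one known before it. The direction held in all 28 alternative analyses (other pseudocounts, filters, scalings and fits, and libraries left out), with 17 or 18 of 18 enzymes lower and medians of −0.57 to −0.37. Leaving out a single NS library, dropping the mean-dependent prior or fitting only the 6 libraries compared cannot change these fold changes, only their SE. The other alternatives reuse the same cultures, so the count is a description. The calls did not hold in all 28. The 5 calls were lost when WT St replicate 3, WT St replicate 4 or TNFR2-/- St replicate 5 was left out (0 members called), and 3 members were called when WT St replicate 2 or WT NS replicate 4 was left out. Leaving out TNFR2-/- St replicate 2 gave 2 calls and TNFR2-/- St replicate 4 gave 9. Calls over all genes moved as well, from 111 lower in the main fit. In the 3 settings with 0 members, 10, 12 and 19 of all genes were called lower. Without WT St replicate 2, WT NS replicate 4 or TNFR2-/- St replicate 2 the all-gene numbers were 65, 59 and 36. Without TNFR2-/- St replicate 4 the number was 200. Without both libraries of TNFR2-/- culture 5, all 18 enzymes were lower (median −0.43) and 2 passed the adjusted p. Of all genes tested, 115 passed as lower in that fit.

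**Figure D3:**
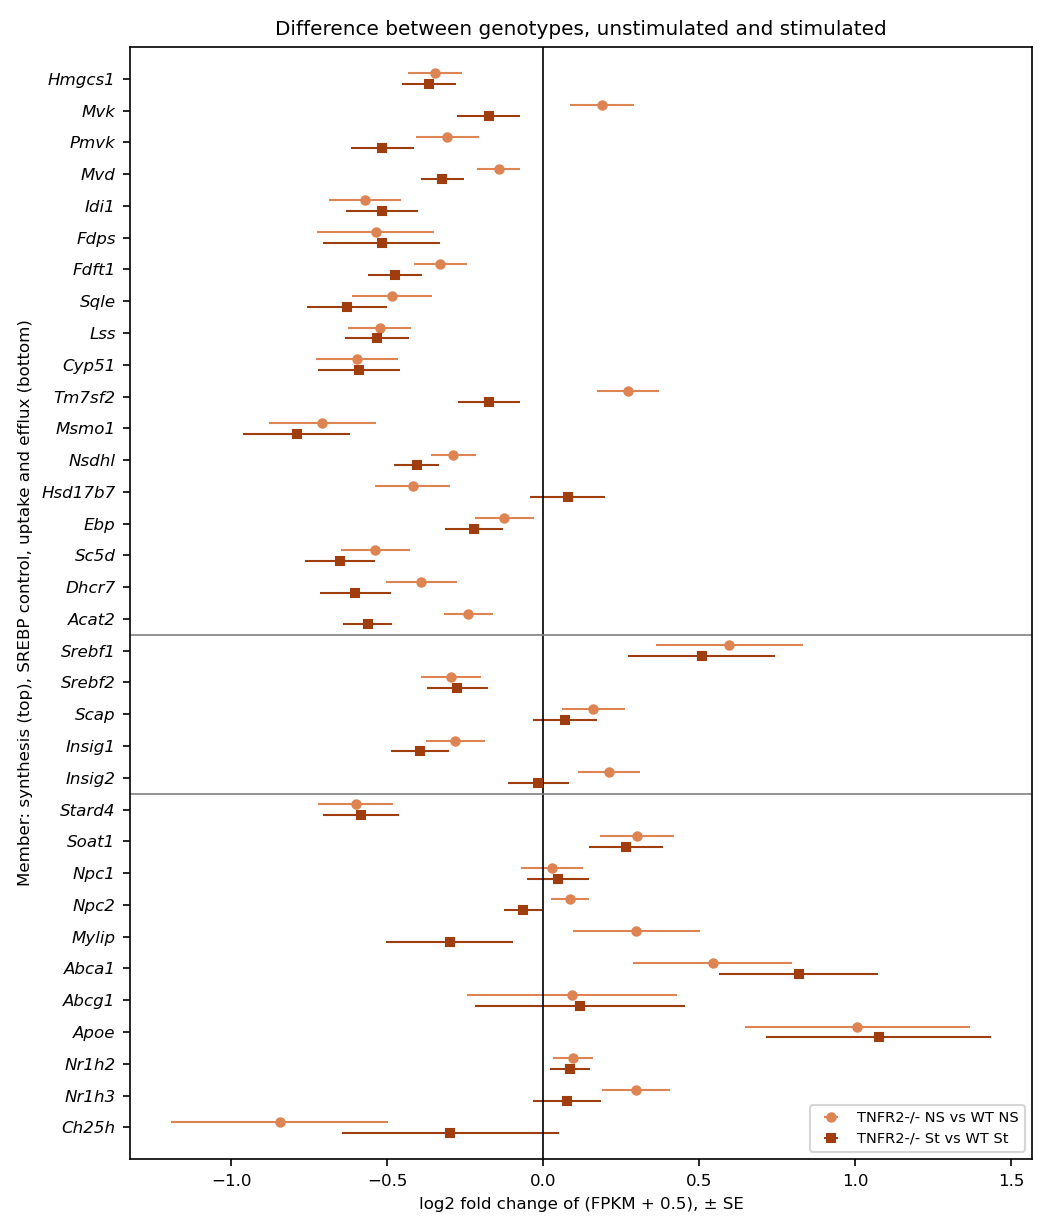
Log2 fold change of (FPKM + 0.5) between TNFR2-/- and WT OPCs with its SE (horizontal axis) for each member (vertical axis), circles for NS and squares for St libraries. In St libraries 17 of 18 enzymes lie below 0, with *Msmo1* lowest (−0.79) and *Hsd17b7* above 0 (0.08), while *Apoe* (1.07) and *Abca1* (0.82) lie farthest to the right.

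Stimulation itself was addressed within each genotype, and 6 of 6 cytokine response genes were called higher in both. NS and St values came from separate tables, in which 1 divisor per gene and the total of each library returned whole reads, so levels could be set side by side. In WT OPCs 0 enzymes were called and 1 was higher by adjusted p. As lower, 0 passed the adjusted p, 5 had an unadjusted p under 0.05 and voom on the recovered reads passed 1. Of all 18081 genes, 5019 had an unadjusted p under 0.05 in either direction, and voom passed 1574 as lower. The enzymes had a median log2 fold change of −0.13 (−0.05 over all genes). Over all members *Ch25h* alone was called, and it was higher (4.58% of all genes were called higher and 2.95% lower). By adjusted p alone 3 were higher and 1 lower (7.70% and 8.36%).

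With the culture as a replicate block, which pairs NS and St libraries, 7 enzymes were lower by adjusted p in WT OPCs and 2 higher, where the block passed 20.2% of all genes as lower and 11.4% as higher. They were *Hmgcs1* (−0.24, adjusted p = 0.00125), *Lss* (−0.32, 0.000531), *Dhcr7* (−0.29, 0.00256), *Mvk* (−0.31, 0.00509), *Sqle* (−0.21, 0.0052), *Fdft1* (−0.15, 0.0163) and *Mvd* (−0.20, 0.0443). All 7 fell in each of the 3 WT cultures, which the paired test largely selects for. So did *Pmvk*, *Idi1*, *Fdps*, *Cyp51*, *Msmo1*, *Nsdhl* and *Sc5d*, which did not pass. Over the 28 alternatives the adjusted p of the 7 that passed ranged from 0.000531 to 0.668.

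In TNFR2-/- OPCs 16 of 18 enzymes were lower after stimulation, with a median log2 fold change of −0.28, against −0.11 over all genes. With median-of-ratios scaling these medians were −0.16 and −0.015. By adjusted p 10 enzymes were lower and 1 higher, 13 and 1 with the replicate block, which passed 31.7% of all genes as lower and 13.4% as higher and under which *Sqle*, *Msmo1* and *Sc5d* also passed (−0.36, −0.21 and −0.19, adjusted p = 0.000429, 0.0105 and 0.00301). *Mvk* fell in all 3 cultures, from 135, 165 and 185 to 91.3, 105 and 105 FPKM (−0.68 ± 0.10 SE, adjusted p = 0.000762), and groups did not overlap. It no longer reached the fold change threshold with median-of-ratios scaling (−0.56) or without TNFR2-/- NS replicate 5 (−0.57). In WT cultures it went from 142, 143 and 136 to 119, 110 and 111 FPKM (−0.31 ± 0.10 SE, adjusted p = 0.0644, and 0.00509 with the block). *Tm7sf2*, *Dhcr7* and *Acat2* also fell in TNFR2-/- OPCs (−0.46, −0.50 and −0.37, adjusted p = 0.00624, 0.00867 and 0.00673).

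Over all members, *Ch25h* and *Hsd17b7* were called higher and *Mvk* and *Mylip* lower in TNFR2-/- OPCs (5.41% and 4.68% of all genes), and by adjusted p alone 3 were higher and 13 lower (9.62% and 16.3%). *Hsd17b7* rose while most other enzymes fell. It went from 27.3, 34 and 32.5 to 41.0, 48.4 and 44.0 FPKM in WT cultures 2, 3 and 4 (0.50 ± 0.12 SE, adjusted p = 0.0169). In TNFR2-/- cultures 2, 4 and 5 it went from 24.8, 23.2 and 21.6 to 44.3, 41.5 and 55.8 FPKM, a 2.04-fold rise of the mean (1.0 ± 0.12 SE, adjusted p = 0.000172). It rose in 6 of 6 cultures, and the TNFR2-/- rise was called in all 28 alternatives. *Ebp*, a sterol isomerase, was 2.99 ± 0.0158 FPKM in WT NS and 3.69 ± 0.328 in WT St (0.26 ± 0.09 SE, adjusted p = 0.0916, and 0.0426 with the block).

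**Figure D4:**
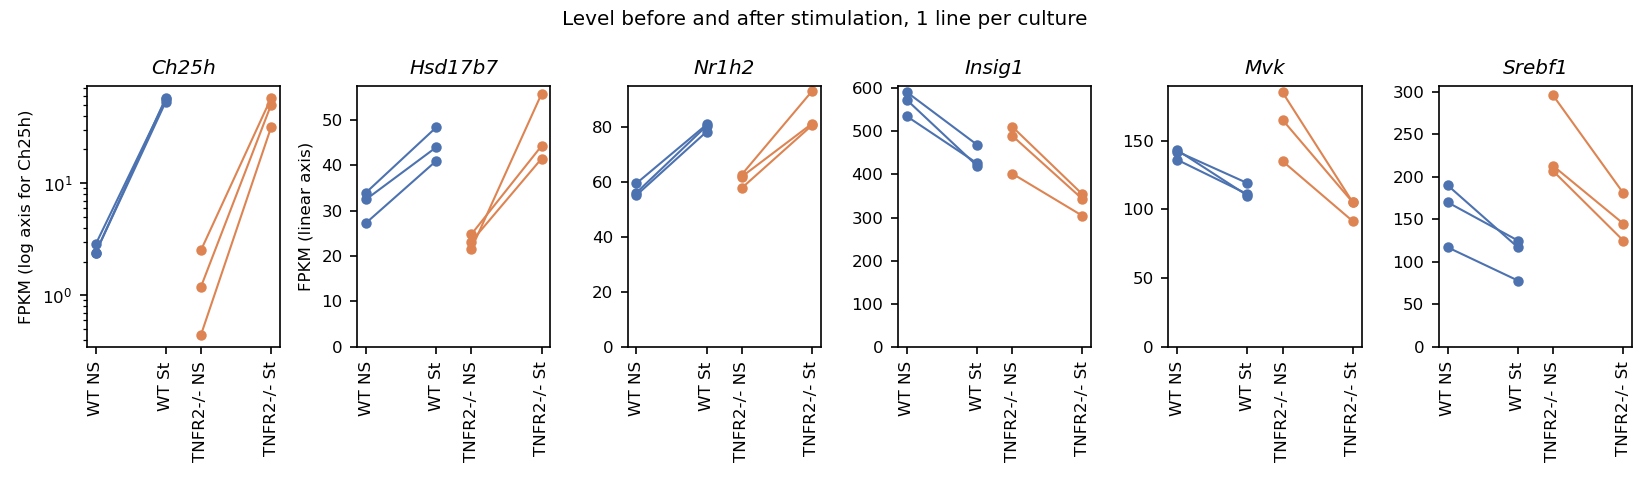
FPKM (vertical axes, logarithmic for *Ch25h* and linear from 0 for the others) of 6 members before and after stimulation (horizontal axes), with 1 line per culture, blue for WT and orange for TNFR2-/-. *Ch25h*, *Hsd17b7* and *Nr1h2* rose and *Insig1*, *Mvk* and *Srebf1* were lower in every culture, with *Hsd17b7* reaching 55.8 FPKM in TNFR2-/- culture 5.

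Among the SREBP control genes, *Srebf2*, which encodes SREBP2, had 1600, 1770 and 1640 FPKM in WT NS and 1330, 1550 and 1220 in TNFR2-/- NS (−0.30 ± 0.10 SE). After stimulation it had 1490, 1610 and 1550 FPKM in WT and 1270, 1430 and 1160 in TNFR2-/- libraries (−0.28 ± 0.10 SE, adjusted p = 0.109), without overlap. With stimulation it was slightly lower in 6 of 6 cultures, which passed with the replicate block alone (−0.11, adjusted p = 0.0215 in WT, and −0.09, adjusted p = 0.0341 in TNFR2-/-). *Insig1*, itself a gene that SREBP activates, had 535, 591 and 573 FPKM in WT NS and 490, 511 and 402 in TNFR2-/- NS (−0.28 ± 0.09 SE). *Insig1* followed the direction of the enzymes: in St libraries it had 426, 469 and 420 FPKM in WT and 343, 354 and 304 in TNFR2-/- (−0.39 ± 0.09 SE, adjusted p = 0.0427). It fell with stimulation in 6 of 6 cultures, in WT (−0.37 ± 0.09 SE, adjusted p = 0.0223) and in TNFR2-/- OPCs (−0.48 ± 0.09 SE, adjusted p = 0.00379).

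*Srebf1*, which encodes the lipogenic factor SREBP1 and is a target of LXR, went the other way between genotypes. It had 190, 117 and 170 FPKM in WT NS and 207, 213 and 296 in TNFR2-/- NS (0.60 ± 0.24 SE), and 117, 77.9 and 125 in WT St and 125, 145 and 181 in TNFR2-/- St (0.51 ± 0.24 SE, adjusted p = 0.197). In both conditions the lowest TNFR2-/- library was at or above the highest WT library, but the difference did not pass the test. With stimulation *Srebf1* was lower in 6 of 6 cultures (−0.58 ± 0.24 SE, adjusted p = 0.138 in WT, and −0.66 ± 0.24 SE, adjusted p = 0.0624 in TNFR2-/-). With the replicate block both passed, at adjusted p = 0.000521 and 0.000208, and the TNFR2-/- decrease was called. *Scap* and *Insig2* ranged from 124 to 172 FPKM and from 10.6 to 15.0 FPKM, and neither passed in any comparison without the block, with which both were lower after stimulation in TNFR2-/- OPCs (−0.13, adjusted p = 0.0127, and −0.29, adjusted p = 0.00933).

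The uptake and efflux genes did not share the direction of the enzymes between genotypes. Their median log2 fold change was 0.10 in NS libraries, where 9 of 11 were higher in TNFR2-/-, and 0.07 in St libraries, where 7 of 11 were higher. Over all 18081 genes the medians were 0.04 and −0.003, with 10109 genes higher in NS and 8923 in St, so the set lay near all genes. *Stard4*, a sterol carrier that SREBP activates, was lower in both conditions. It had 261, 321 and 274 FPKM in WT NS and 201, 205 and 159 in TNFR2-/- NS (−0.60 ± 0.12 SE). In St libraries it had 249, 271 and 232 FPKM in WT and 178, 178 and 146 in TNFR2-/- (−0.58 ± 0.12 SE, adjusted p = 0.0298), just short of the fold change threshold. With stimulation it passed with the replicate block alone (−0.18, adjusted p = 0.0172 in WT, and −0.17, adjusted p = 0.0178 in TNFR2-/-).

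*Apoe*, the lipid carrier that accepts cholesterol outside the cell, had 1260, 1020 and 1010 FPKM in WT NS and 1560, 1780 and 3790 in TNFR2-/- NS (1.01 ± 0.36 SE). After stimulation it had 893, 948 and 1060 FPKM in WT and 1340, 1830 and 3430 in TNFR2-/- libraries. Every TNFR2-/- library was above every WT library, and TNFR2-/- culture 5 was the highest in both conditions. The difference in St libraries did not pass (1.07 ± 0.36 SE, adjusted p = 0.0951), nor did it without culture 5 (0.70 ± 0.15 SE, adjusted p = 0.0611).

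*Abca1*, which exports cholesterol to lipid-poor apolipoproteins, had 138, 80.6 and 112 FPKM in WT NS and 148, 126 and 208 in TNFR2-/- NS, with groups that overlapped (0.54 ± 0.25 SE). In St libraries it had 132, 80.8 and 108 FPKM in WT and 158, 175 and 231 in TNFR2-/-, which did not overlap and did not pass (0.82 ± 0.25 SE, adjusted p = 0.0786). Without culture 5 the difference was 0.66 ± 0.25 SE (adjusted p = 0.157). *Abcg1*, which exports cholesterol to lipoproteins, had 3.68, 3.64 and 2.66 FPKM in WT NS, 1.90, 4.18 and 5.41 in TNFR2-/- NS, 2.86, 2.64 and 2.56 in WT St and 1.69, 3.55 and 4.14 in TNFR2-/- St. Within TNFR2-/- it thus spread from below the lowest to above the highest WT library (0.09 ± 0.34 SE in NS, and 0.12 ± 0.34 SE with adjusted p = 0.854 in St).

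The astrocyte markers moved with *Apoe* and *Abca1*. Summed over *Gfap*, *Aqp4*, *Aldh1l1*, *Gja1*, *Slc1a2* and *Aldoc*, they had 791 to 943 RPM in WT NS, 1220 to 2520 in TNFR2-/- NS, 790 to 903 in WT St and 1330 to 2500 in TNFR2-/- St. The 6 markers had a median log2 fold change of 0.89 in NS and 0.96 in St libraries, with 1 called in each (*Gja1* and *Slc1a2*). In both conditions WT culture 3 had the lowest sum of astrocyte markers and the highest sum of synthesis enzymes. Of 6 markers of mural cells and fibroblasts, 5 were tested, with median log2 fold changes of −0.92 and −1.41. Medians of the 6 mature oligodendrocyte, 4 endothelial and 4 neuronal markers lay between −0.21 and 0.41. The 5 OPC markers had medians of −0.13 in NS and −0.07 in St, and of them *Pdgfra*, the antigen used for purification, was called lower in TNFR2-/- St (−0.60 ± 0.15 SE, adjusted p = 0.0488), with 47201 reads in WT St and 30796 in TNFR2-/- St. Of 10 immediate early genes, 7 were called lower in TNFR2-/- NS (median −1.22), and the median was −0.41 in St. The part of these cell types and genes in the differences of members was not tested.

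**Figure D5:**
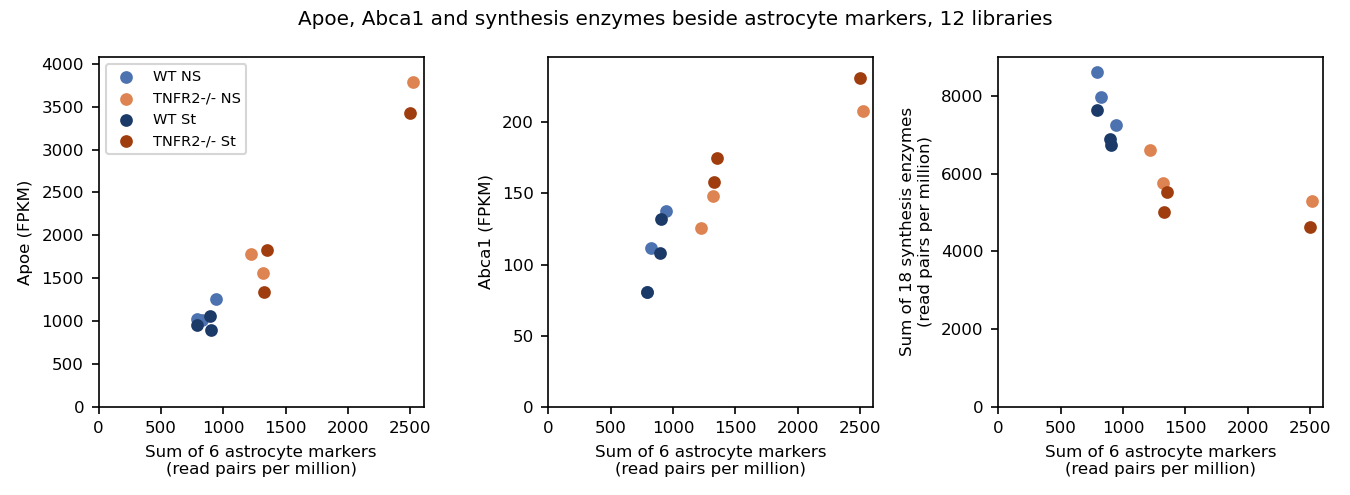
*Apoe* and *Abca1* in FPKM and the sum of the 18 synthesis enzymes in RPM (vertical axes) against the summed astrocyte markers in RPM (horizontal axes), 1 point per library, colored by group. The 2 libraries of TNFR2-/- culture 5 (2520 and 2500) have the highest *Apoe* (3790 and 3430 FPKM) and the lowest enzyme sum of their condition (5300 and 4640).

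*Ch25h*, the interferon-induced hydroxylase that makes the oxysterol 25-hydroxycholesterol, had the largest response to stimulation among the members. Its reads numbered 16, 17 and 16 in WT NS and 387, 374 and 359 in WT St, and 8, 17 and 3 in TNFR2-/- NS and 337, 389 and 203 in TNFR2-/- St. Mean FPKM rose 21.9-fold in WT and 33.6-fold in TNFR2-/- OPCs (log2 fold change 4.21 ± 0.35 SE, adjusted p = 1.19e-05, and 4.76 ± 0.35 SE, adjusted p = 3.84e-06), in 6 of 6 cultures and in all 28 alternatives. The level in TNFR2-/- culture 5 before stimulation, 0.443 FPKM, is below the 0.5 added before the logarithm, which makes the size of the second value depend on that choice. Between genotypes *Ch25h* was lower in TNFR2-/- NS, with groups that overlapped (−0.84 ± 0.35 SE), and it did not pass after stimulation (−0.30 ± 0.35 SE, adjusted p = 0.619), and the responses did not differ by the interaction test (0.55 ± 0.49 SE, adjusted p = 0.852).

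*Nr1h2*, the LXR gene with the higher level here, rose in 6 of 6 cultures by a similar amount. It went from between 55.1 and 59.4 to between 78.2 and 80.8 FPKM in WT (0.49 ± 0.07 SE, adjusted p = 0.000461) and from between 57.7 and 62.6 to between 80.5 and 92.9 FPKM in TNFR2-/- cultures (0.48 ± 0.07 SE, adjusted p = 0.000393). Groups did not overlap in either genotype, and the rise stayed below the fold change threshold. *Nr1h3* stayed between 0.163 and 0.499 FPKM, at or under the added 0.5, and did not pass in any comparison. *Abca1* and *Apoe*, which LXR activates, did not pass after stimulation in WT (−0.03, adjusted p = 0.963, and −0.18, adjusted p = 0.824) or TNFR2-/- OPCs (0.24, adjusted p = 0.538, and −0.11, adjusted p = 0.859). With the replicate block the *Abca1* increase in TNFR2-/- OPCs passed (adjusted p = 0.0334), and it was 0.10, 0.48 and 0.15 in cultures 2, 4 and 5.

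*Mylip*, an LXR target and an E3 ubiquitin ligase that marks lipoprotein receptors for degradation, had only 69 to 165 reads per library. *Mylip* values were 45.1, 39.1 and 37.2 FPKM in WT NS, 37.4, 47.7 and 68.9 in TNFR2-/- NS, 34.9, 49.8 and 34.9 in WT St and 29.1, 33.1 and 33.5 in TNFR2-/- St. *Mylip* fell in all 3 TNFR2-/- cultures (−0.64 ± 0.20 SE, adjusted p = 0.0422), most in culture 5, whereas WT cultures went in both directions (−0.04 ± 0.20 SE, adjusted p = 0.946). The call was kept in 9 of 28 alternatives and lost without TNFR2-/- NS replicate 5 (−0.40, adjusted p = 0.118), and the interaction did not pass (−0.60 ± 0.29 SE, adjusted p = 0.645). *Npc1*, which moves cholesterol out of lysosomes, had 49.3, 55.1 and 50.6 FPKM in WT NS, 50.6, 48.9 and 59.1 in TNFR2-/- NS, 41.7, 48.3 and 48.2 in WT St and 44.1, 45.3 and 53.7 in TNFR2-/- St. These groups overlapped except between WT NS and WT St, and *Npc1* did not pass in any comparison without the block, with which it was lower after stimulation in both genotypes (−0.16, adjusted p = 0.0292 in WT, and −0.15, adjusted p = 0.0324 in TNFR2-/-). Its partner *Npc2* fell in TNFR2-/- OPCs (−0.23 ± 0.06 SE, adjusted p = 0.0202), from 842 ± 69.5 to 719 ± 19.9 FPKM. *Soat1*, which esterifies cholesterol for storage, ranged from 21 to 32.8 FPKM and did not pass in any comparison.

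Whether stimulation acted differently in the genotypes was tested as the interaction, without the replicate block. The interaction and the comparisons of St with NS use the NS libraries whose genotype difference was known when the members were chosen. By limma 0 members were called (0.00553% of all genes, which is 1 gene), by voom 0, and 4 had an unadjusted p under 0.05, namely *Tm7sf2* (−0.45 ± 0.14 SE), *Acat2* (−0.32 ± 0.11 SE), *Mvk* (−0.36 ± 0.14 SE) and *Hsd17b7* (0.50 ± 0.17 SE). Their adjusted p ranged from 0.512 to 0.582. Of all 18081 genes, 1437 had an unadjusted p under 0.05 for the interaction. The median interaction was −0.11 over the enzymes, 0.02 over the uptake and efflux genes and −0.05 over all genes.

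After group means were removed, the 12 libraries still showed the enzymes moving together. The median Pearson correlation was 0.69 over the 153 pairs of enzymes, 134 of them positive, against 0.30 over the 55 pairs of uptake and efflux genes and −0.17 over the 198 pairs between these sets. *Srebf2* correlated with the enzymes at a median of 0.89 and *Stard4* at 0.81, whereas *Srebf1* did so at −0.72. *Abca1* correlated with *Srebf1* at 0.93 and with *Apoe* at 0.66. These values are a description, since NS and St libraries share their culture and all genes of a library share its depth and cell composition. WT culture 3 had the highest enzyme sums of WT cultures (8610 and 7640) with the lowest *Srebf1* and *Abca1*, and TNFR2-/- culture 5 the lowest enzyme sums (5300 and 4640) with the highest *Srebf1*, *Abca1* and *Apoe*.

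Of 31 other sterol genes, chosen to cover the pathway beyond the members, 29 were tested. Between stimulated genotypes 1 was called, with a median log2 fold change of 0.03. It was *Cyp7b1*, which hydroxylates oxysterols and was higher in TNFR2-/- (0.84 ± 0.17 SE, adjusted p = 0.0295). With stimulation *Cyp7b1* was called higher in WT OPCs (0.65 ± 0.17 SE, adjusted p = 0.0282), and 3 genes were called lower in each genotype. These were the sterol transporter *Abcg4* (−1.17 in WT and −1.32 in TNFR2-/-), the membrane sterol carrier *Gramd1b* (−1.10 and −1.37) and the LXR partner *Rxra* (−0.68 and −0.70), with adjusted p from 2.28e-05 to 0.00274. Between unstimulated genotypes *Cyp7b1* was higher and *Lbr*, a sterol reductase, lower (0.96 and −0.63).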

How the data were processed

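RNAseq was measured in 12 libraries of 4 groups. The reads were trimmed (Trim Galore) and aligned (STAR, GRCm38) by the authors, who also used edgeR and deposited FPKM per gene symbol in separate tables for NS and St libraries. Aligner settings and strand of counting are not given in the sources used here. The NS and St tables held 45792 entries, of which 99 repeated symbols (229 entries) were left out because their rows could not be told apart. Whole reads were recovered jointly from both tables, to within 0.02 of a read, for all 26636 symbols above 0 in at least 2 libraries, and gave library totals of 26886878 to 30335265 read pairs. These reads served for levels between genes, counts and voom.

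Tests used limma 3.58.1 (R 4.3.3) on log2(FPKM + 0.5) with 4 group means, 8 residual degrees of freedom, the mean-dependent prior and Benjamini-Hochberg adjustment over the 18081 genes that averaged 0.1 FPKM or more. Members were called where the adjusted p was up to 0.05, the change 1.5-fold or more and the average 1 FPKM or more. Fold changes of low genes are understated on this scale. The fit was run beforehand on simulated data with changes of 2-fold and 4-fold, and it recovered 100 of 100 genes at each size. The simulated libraries were independent, with 1 fixed spread for every gene. Smaller changes, paired cultures and differences in cell composition were not simulated. The recovery therefore does not give the power in these cultures, where *Apoe* differed 2.27-fold in mean FPKM between stimulated genotypes and was not called.

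Deviations from group means correlated at 0.338 to 0.649 between NS and St libraries of a genotype with the same number in the labels (6 pairs) and at −0.455 to 0.088 between other numbers (12 pairs). Across genotypes the same number gave −0.078 to 0.204 (8 pairs). Numbers were therefore taken to pair NS with St libraries within a genotype only.

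The members and lists were chosen with earlier results of these data known. Values in every library are given for members called in any comparison and for *Hmgcs1*, *Idi1*, *Sqle*, *Cyp51*, *Srebf1*, *Srebf2*, *Insig1*, *Abca1*, *Abcg1*, *Apoe*, *Ch25h*, *Mylip* and *Npc1*, and of the other sterol genes up to 3 called genes per direction are named. Alternatives covered the pseudocount, the filter, scaling, prior, voom, the samples in the fit, replicate blocks and leaving out each library or, chosen after the data were seen, both libraries of a culture. Promoter windows were taken from RefSeq.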

Additional observations from a re-analysis of the deposited data

How the results depend on the processing

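Between unstimulated genotypes 3 members were called. The number was 0 with only the 6 libraries compared, 1 with the number in the labels as a replicate block, 10 with no threshold on the fold change and 0 to 9 without single libraries. Of all genes, 231 were called lower in the main fit and 0, 201, 799 and 10 to 389 in these settings. Leaving out both libraries of a culture, chosen after the data were seen, gave 5 for WT culture 2, 9 for TNFR2-/- culture 4 and 0 for each of the other cultures. The corresponding numbers of all genes called lower were 198, 402 and 2 to 77. The median of the uptake and efflux genes was 0.265 without TNFR2-/- culture 2 and 0.073 to 0.265 without single libraries. Between stimulated genotypes the 5 calls became 3 with no filter on low values or with quantile normalization, 0 with only the 6 libraries compared, 1 with the replicate block, 15 with no threshold on the fold change and 0 to 9 without single libraries. In the same order, all genes called lower went from 111 to 49 and 91, 8, 199, 452 and 10 to 200. Without both libraries of a culture the number was 1 for WT culture 2 or TNFR2-/- culture 2, 9 for TNFR2-/- culture 4 and 0 for each of the others, where fewer libraries were compared. The corresponding numbers of all genes called lower were 56 and 18, 280 and 2 to 34. The enzyme median was −0.369 with the replicate block, and that of uptake and efflux genes was −0.04 without TNFR2-/- culture 5 and −0.04 to 0.111 without single libraries. Across genotypes the block rests mainly on numbers 2 and 4, the only ones that both genotypes have. WT culture 3 and TNFR2-/- culture 5 enter these values only through their difference between NS and St. The numbers were not found to pair genotypes. For stimulation, no threshold on the fold change gave 4 calls in WT and 16 in TNFR2-/- OPCs. Of all genes, 1189 were then called higher and 1437 lower in WT, and 1439 and 2796 in TNFR2-/- OPCs. Median-of-ratios scaling gave −0.162 for the enzymes and −0.03 for uptake and efflux genes in TNFR2-/- OPCs, and without single libraries the latter ranged from −0.203 to 0.004. The median interaction of uptake and efflux genes ranged from −0.123 to 0.049 without single libraries. The fit with only 6 libraries was not possible for the interaction. No called value changed sign. The cause of these shifts was not tested. Precision was limited by 3 libraries per group.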
